A study of Bos taurus with 60 samples.

Results

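The comparison of D25 with D14 takes the bovine mammary gland from the steady state of involution into the start of redevelopment. It was made on 24 of the 60 libraries of the series. These are all 12 collected at D14 and all 12 collected at D25 after dry-off. Libraries were chosen by their labelled time point, cooled (CL) and heat-stressed (HT) cows together. The same 12 cows supplied both time points, so each has a D14 and a D25 library. All were multiparous Holstein cows in late gestation whose milking had stopped at dry-off (D0). The 6 CL cows had shade, fans and soakers through the dry period, and the 6 HT cows had shade without fans or soakers in another pen. Each library is poly(A) RNA of a single biopsy of whole tissue trimmed of visible fat. The gland of the udder that was biopsied alternated between time points, so in each cow the day and the sampled gland cannot be told apart.

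A mammary gland that is no longer milked loses secretory cells by programmed cell death, and its matrix is remodelled while phagocytes clear debris and milk residue. STAT3, a transcription factor activated by cytokines of the IL-6 family such as LIF and oncostatin M, drives the first phase of this process. In a pregnant cow the alveolar epithelium then proliferates again, and milk protein genes are switched back on as calving nears. The question of the comparison was which transcripts mark the passage from the first state to the second.

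Counts per library were 21082110 to 23853504 at D14 and 20525083 to 23530384 at D25. Of 25223 loci, 14714 reached 1 CPM (a count scaled to the size of its library) in 6 or more of the 60 libraries and were tested with the quasi-likelihood F-test of edgeR in a fit of all 60 libraries. CPM values are scaled by TMM factors, and DEGs are loci whose FDR by the Benjamini-Hochberg method did not exceed 0.05. A symbol could be paired with 3002 of the tested loci. These pairs come from genes that ranked highest in comparisons of earlier days, so counts of named genes below lean towards genes that respond early after dry-off. In bulk tissue, fewer cells of a type and less RNA per cell cannot be told apart.

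The tissue label was checked against cell type markers, and 1 library stood apart. In 23 of the 24 libraries the 6 measured luminal epithelial markers (KRT7, KRT19, CLDN3, CLDN4, CLDN7 and ELF3, of which KRT7 and ELF3 share their locus with another gene) summed to between 816 and 3348 CPM. In the D14 library of cow 7965 (CL) they summed to 35.3 CPM, and each of the 6 was below every other D14 library. The 11 measured genes of the extracellular matrix list summed to 15210 CPM there against 1524 to 4207 CPM in the other 23. Its median correlation with the other 59 libraries, on log2 CPM across loci, was 0.824, against 0.925 to 0.956 for the other 23, although its 22784804 counts were within their range.

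**Figure D1:**
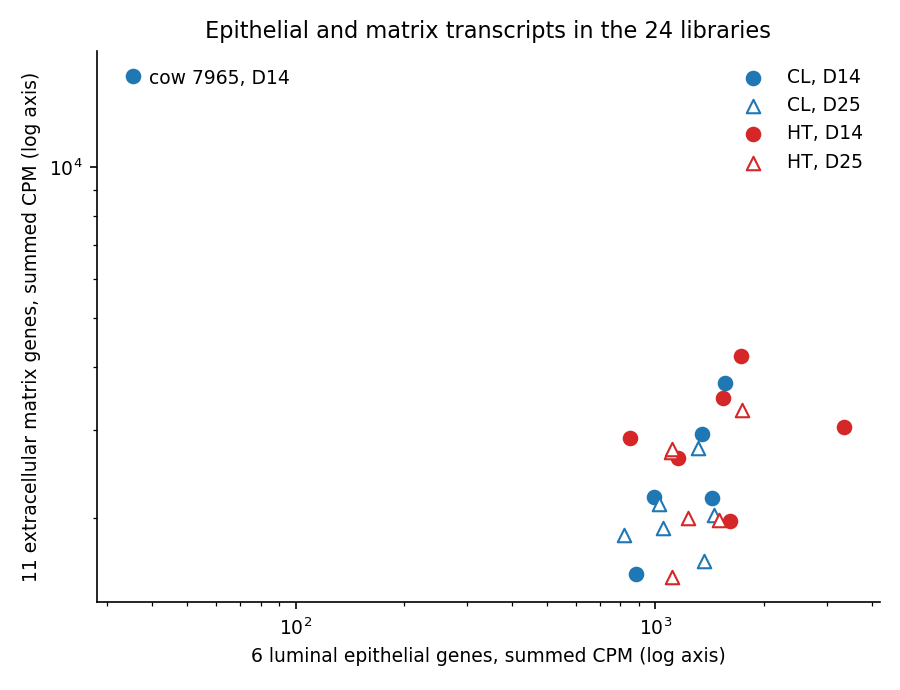
Summed CPM of 6 luminal epithelial genes (x, log axis) and of 11 extracellular matrix genes (y, log axis) in each D14 (filled circles) and D25 (open triangles) library of CL (blue) and HT (red) cows. The D14 library of cow 7965 lies at 35.3 and 15210 CPM, apart from the other 23 on both axes.

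Single genes of this library show how far it differed. KRT19, a keratin of luminal cells, had 3.36 CPM in it and 231 to 1643 CPM (median 595) in the other 11 D14 libraries. ERBB3, a receptor of epithelial cells that binds neuregulins, had 2.40 CPM against 209 to 597 CPM (median 334). BTN1A1, butyrophilin of the milk fat globule membrane, had 0.288 CPM (6 reads, with an exact 95% Poisson interval of 2.2 to 13.1 that covers counting error only) against 1.69 to 427 CPM (median 112). These 3 epithelial genes lay below the range of the other cows. DCN, the small matrix proteoglycan decorin, had 5396 CPM against 561 to 1559 CPM (median 880). FN1, fibronectin, had 7352 CPM against 532 to 1879 CPM (median 1053). DPT, dermatopontin of the dermis and other connective tissue, had 610 CPM against 11.1 to 76.5 CPM (median 36.4). These 3 matrix genes lay above the range of the other cows. The summed level of 3 endothelial markers was also higher (605 against 182 to 282 CPM), as was that of 3 macrophage markers (266 against 57.5 to 230 CPM), and 8 myoepithelial and smooth muscle markers lay inside the range (2650 against 1078 to 3314 CPM). In total 1828 loci were at least 4-fold from the median of the other D14 libraries, 1311 of them lower and 517 higher, and in the other 23 libraries the corresponding number was 100 to 368. BTN1A1 was the only named locus among the 10 farthest below, and none of the 10 farthest above had a symbol.

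Against that background, 9 loci (0.0612% of those tested) were DEGs at D25 relative to D14, all lower at D25. None of the 9 has a symbol here. Each rested on 1 D14 library. For 8 of them the D14 library of cow 7965 was the highest of all 60. The locus XLOC_023641 may serve as the example, since it had the largest log2 fold change. It had 342 CPM in that library, 0.504 to 5.04 CPM (median 1.44) in the other 11 D14 libraries and 0.160 to 4.02 CPM (median 1.14) at D25, the lowest of these being 4 reads (interval of 1.09 to 10.2). Apart from the 1 library the days overlapped throughout. Its log2 fold change was -4.52 ± 0.88 (SE; edgeR FDR = 0.0224) with all libraries, and -0.73 (unadjusted p = 0.188) without that one. The ninth, XLOC_005519, had 133 CPM in the D14 library of cow 8541 (HT), 0.541 to 6.00 CPM in the other D14 libraries and 0.314 to 3.01 CPM at D25. Its log2 fold change of -3.32 ± 0.68 (FDR = 0.0243) became -0.72 (unadjusted p = 0.107) without the library of cow 8541. Over the 9, log2 fold changes ran from -4.52 to -2.19.

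Leaving out that D14 library of cow 7965 left 0 DEGs by edgeR, and DESeq2 also gave 0. The number of loci at an unadjusted p under 0.05 went from 534 (3.63% of those tested; 59 higher and 475 lower at D25) to 115 (0.782%; 26 higher and 89 lower). Leaving out any other single D14 library gave 12 to 24 DEGs, all lower. Leaving out single D25 libraries gave 0 to 9, and 7 of these 12 fits gave 0. Leaving out every library of a cow, those of earlier days included, gave 0 for cow 7965 and for cow 8668, and 1 to 11 for the others. With the cow as a block, which uses the pairing of D14 and D25 within cows, there were 0 DEGs in the fit of all 60 libraries (756 loci, 5.14%, at an unadjusted p under 0.05). In the HT cows 8513 and 8660 the libraries of D14 and D25 deviated from the day medians less like the same cow's libraries of the earlier days (mean correlations of -0.02 and 0.13 across loci) than like those of the other of these cows (0.47 and 0.41). Of the 12 cows 7 were closest to their own earlier libraries, and 3 more were closer to another cow's, namely 8647 (0.10 with its own, 0.34 with those of 8668), 8668 (0.34, and 0.45 with 8713) and 8603 (0.20, and 0.27 with 8564). The block over all days rests on those earlier libraries and, fitted without cows 8513 and 8660, also gave 0 DEGs. Fits of D14 and D25 alone do not use them, and there the D14 and D25 libraries of each of these cows correlated at 0.64.

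**Figure D2:**
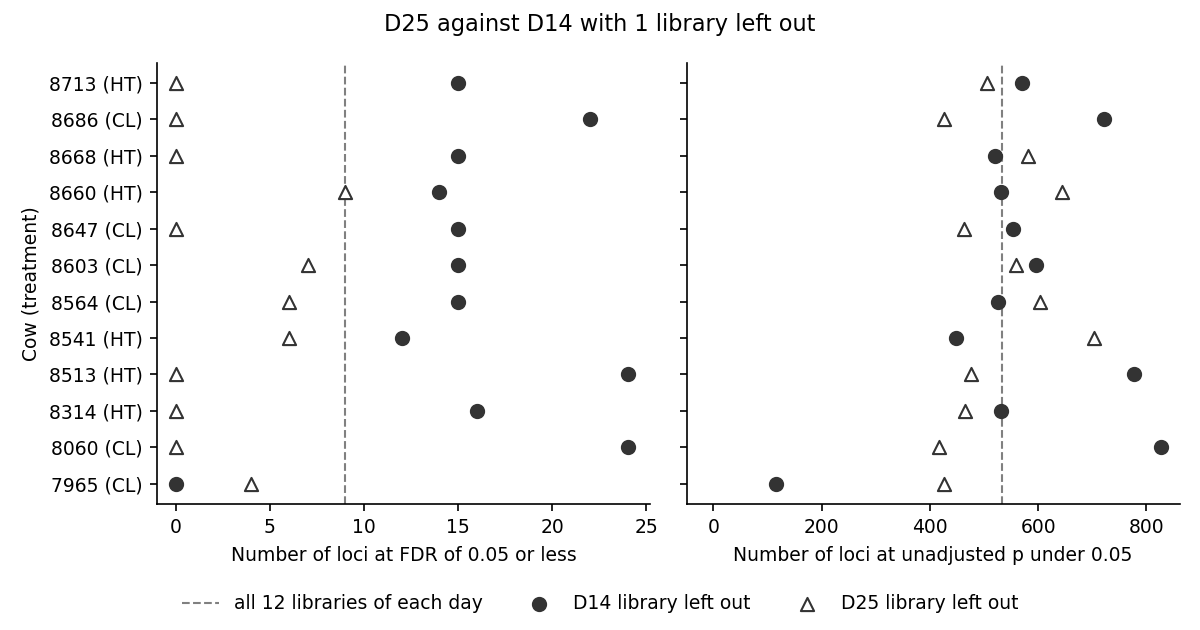
Number of loci at an FDR of at most 0.05 (left) and at an unadjusted p under 0.05 (right), after leaving out the D14 (filled circles) or D25 (open triangles) library of each cow (y). Dashed lines mark the 9 and 534 loci with all libraries, and the 0 and 115 without the D14 library of cow 7965 are the lowest of the 12 filled circles in each panel.

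For genes of the matrix, the fibres and proteins around the gland's cells, the size of the difference depended on the same library. Of 38 matrix symbols 11 were measured, and in the fit of all libraries 10 were lower at D25, with 7 at an unadjusted p under 0.05 (FN1, DCN, MMP27, TIMP1, TIMP2, COL14A1 and LOXL1, where 3.23% of all loci were lower at this p). Of these, MMP27 was near the floor, with 3.79 CPM in the D14 library of cow 7965 and at most 0.814 CPM in the other 23. The median log2 fold change of the list was -0.83, beside 0.01 over all loci. Without the D14 library of cow 7965, all 11 were lower, 0 at a p under 0.05, and the median was -0.43. FN1 went from -0.99 ± 0.33 (SE) to -0.43 (unadjusted p = 0.127). TIMP1, an inhibitor of matrix metalloproteinases, had 212 CPM in that library and 19.1 to 76.3 CPM in the other 11 at D14, with 17.1 to 52.3 CPM at D25 in the same 11 cows. Its log2 fold change went from -0.93 ± 0.33 to -0.49 (unadjusted p = 0.0994). Of the 11 fibroblast markers DCN and DPT were measured, and DPT went from -1.50 ± 0.47 to -0.35 (unadjusted p = 0.350). An edgeR fit without cow 7965 and with the cow as a block, described below, had all 11 matrix genes lower. Of these, 4 had an unadjusted p under 0.05, where 3.75% of all loci were lower at this p, and 0 were DEGs.

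**Figure D3:**
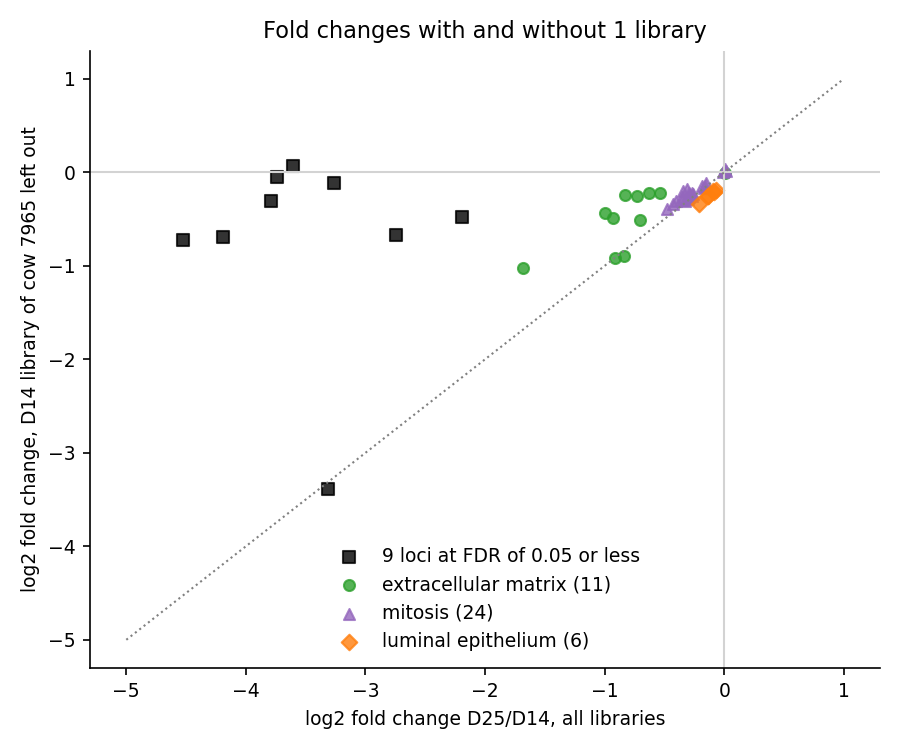
Log2 fold change of D25 over D14 with all libraries (x) and without the D14 library of cow 7965 (y) for the 9 DEGs, 11 extracellular matrix, 24 mitotic and 6 luminal epithelial genes, with a dotted line at equal values. Of the DEGs 8 lie between -0.73 and 0.07 on the y axis, and the one near the line, at -3.32 and -3.38, rests on the D14 library of cow 8541.

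Other cows supplied single high libraries for markers of tissue around the gland. ADIPOQ, adiponectin of fat cells, had 313 CPM in the D14 library of cow 8541, and the next D14 library had 27.6 CPM. Its log2 fold change of -1.19 (unadjusted p = 0.0102) was 0.32 (unadjusted p = 0.291) without it. The 4 measured adipocyte markers summed to 659 CPM in this library, which also gave XLOC_005519 its level, and to 62.6 to 253 CPM in the other D14 libraries except that of cow 7965 (528 CPM). MYH2, a myosin of skeletal muscle, had 9.65 CPM in the D14 library of cow 8314 (HT) and at most 0.759 CPM in the other 23, and its log2 fold change went from -2.32 (unadjusted p = 0.00765) to 0.35 (unadjusted p = 0.647) without that library. The part of such tissue in other results was not tested.

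The change within each cow was then taken without cow 7965, in a fit of the other 22 libraries with the cow as a block. It left 0 DEGs by edgeR (smallest FDR = 0.489), while 1024 loci (6.96%) had an unadjusted p under 0.05, 472 higher and 552 lower at D25. DESeq2 with the same design, added after the data were seen, called 42, of which 8 were higher and 34 lower. All 8 of these with a symbol were lower at D25, and they are STAT3, OSMR, SBNO2, FOSL2, APOD, S100A2, FBF1 and SCNN1G. The 2 tools thus differ on these genes, and the values below are given as differences that did not pass the edgeR threshold. The 20 named genes with the smallest p in the edgeR fit, a set picked after its values were seen, were 17 lower and 3 higher at D25. Named loci leaned the same way in this fit. Of 262 with a symbol at an unadjusted p under 0.05, 186 were lower, against 552 of 1024 over all loci.

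STAT3, OSMR and SBNO2 are given first among them. STAT3 had 213 to 401 CPM (median 306) at D14 and 196 to 366 CPM (median 248) at D25 in the 11 cows. The ranges overlapped, and the D25 value was the lower one in 10 of the 11 cows, all but cow 8660 (HT). The log2 fold change was -0.29 ± 0.07 (SE, unadjusted p = 9.49e-04, edgeR FDR = 0.517). OSMR, the receptor subunit for oncostatin M that signals through STAT3, had 131 to 538 CPM (median 323) at D14 and 88.2 to 362 CPM (median 173) at D25. It was lower in 9 of 11 cows, the exceptions being cows 8513 (HT) and 8564 (CL), with a log2 fold change of -0.61 ± 0.16 (unadjusted p = 0.00247, FDR = 0.552). SBNO2, a transcriptional coregulator in cytokine responses, had medians of 190 CPM at D14 and 130 CPM at D25, was lower in 10 of 11 cows, and differed by -0.42 ± 0.09 (unadjusted p = 4.10e-04). The two-sided exact sign-flip test over the 11 within-cow differences gave p = 0.00488 for STAT3, 0.00781 for OSMR and 0.00195 for SBNO2, where the smallest p this test allows is 9.77e-04, and adjusted over all loci each was 0.553. STAT3, OSMR and SBNO2 were picked by their p in the same 11 cows, so these sign-flip values are no separate evidence. Over all 12 cows and 5 days, the median of OSMR was 184 CPM before dry-off (D-3). It was 335 CPM at D3, then 266 (D7), 311 (D14) and 155 CPM (D25). That of STAT3 was 226, 337, 288, 305 and 234 CPM on the same days.

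**Figure D4:**
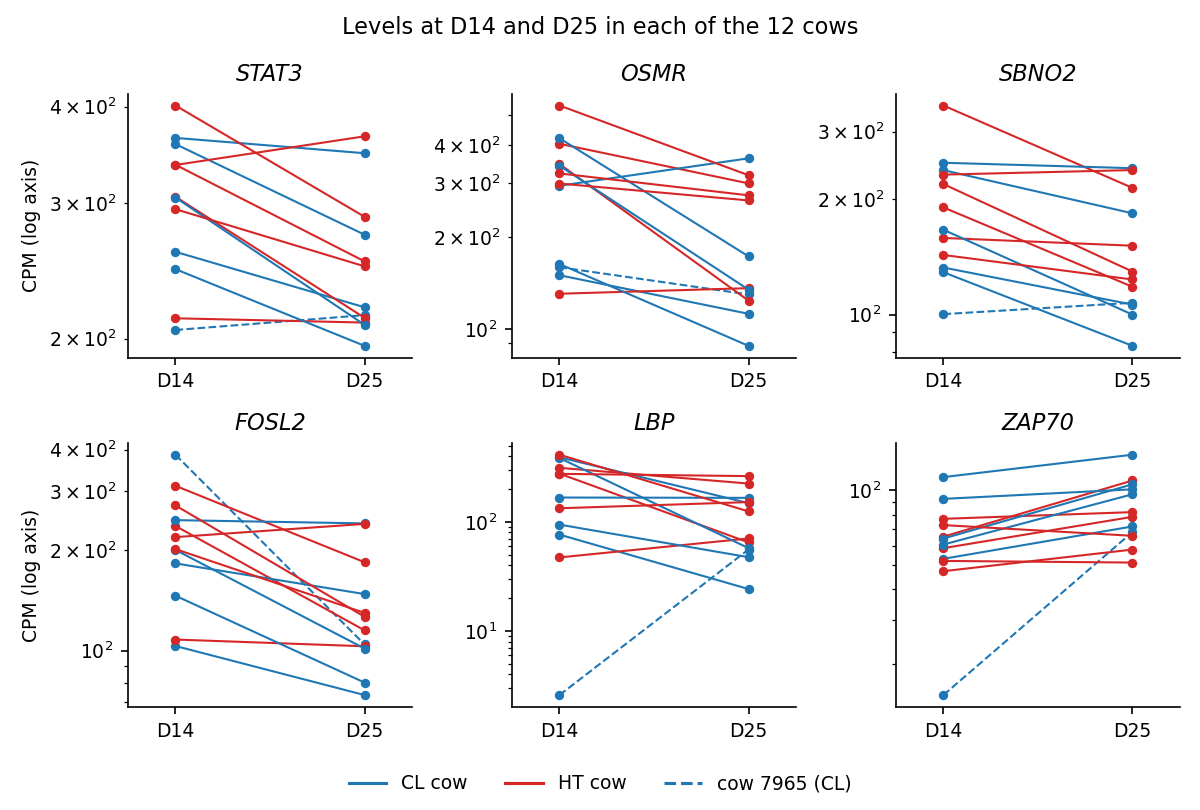
CPM (log axis) of STAT3, OSMR, SBNO2, FOSL2, LBP and ZAP70 at D14 and D25, with a line for each CL (blue) and HT (red) cow and a dashed line for cow 7965. Among the other 11 cows STAT3, SBNO2 and FOSL2 were lower at D25 in 10, OSMR and LBP in 9, and ZAP70 was higher in 9, and none passed the FDR threshold of edgeR.

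Of the other genes lower at D25, FOSL2, a member of the AP-1 family of transcription factors, had 103 to 312 CPM (median 202) at D14 and 73.7 to 241 CPM (median 126) at D25, a difference of -0.57 ± 0.12 (unadjusted p = 4.65e-04) seen in 10 of 11 cows. The tumour necrosis factor receptor gene TNFRSF1B (-0.38 ± 0.10, 9 of 11 cows lower), the interferon receptor gene IFNAR2 (-0.22 ± 0.06, 10 of 11) and SOD2, the mitochondrial superoxide dismutase (-0.72 ± 0.20, 10 of 11), were among the 17. LBP, which binds bacterial lipopolysaccharide, was measured as a member of the innate defence list and not of the 20. It had 47.2 to 412 CPM (median 275) at D14 and 24.2 to 262 CPM (median 125) at D25, with a difference of -0.95 ± 0.30 (unadjusted p = 0.00711, FDR = 0.592) and 9 of 11 cows lower. S100A2, a calcium-binding protein, had 41.1 to 176 CPM (median 90.7) and then 16.0 to 134 CPM (median 48.7), a difference of -0.80 ± 0.19. SCNN1G, a subunit of the epithelial sodium channel, had the largest difference of the 17, -1.38 ± 0.37, with medians of 11.8 and 3.98 CPM. CD9, a tetraspanin of the cell surface, and STBD1, a glycogen-binding protein, were lower at D25 in all 11 cows (-0.36 ± 0.10 and -0.38 ± 0.09, sign-flip p = 9.77e-04 for each, the smallest this test can give). Adjusted over all loci, the smallest sign-flip value was 0.553. Both genes were picked by their p in the same 11 cows, so the sign-flip p is no separate evidence. The remaining 6 of the 17 were APOD, the lipid carrier apolipoprotein D (-0.55 ± 0.12), FBF1 (-0.24 ± 0.06), RASL11B (-0.95 ± 0.26), EVA1C (-0.39 ± 0.11), PARP3 (-0.38 ± 0.11) and RBMS2, an RNA-binding protein (-0.36 ± 0.10). Of all loci tested, 0.761% were lower in at least 10 of the 11 cows.

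The 3 genes of the 20 that were higher at D25 were ZAP70, TCOF1 and LOC540707. ZAP70, a kinase of the T cell receptor, had 47.3 to 113 CPM (median 64.1) at D14 and 51.3 to 139 CPM (median 81.8) at D25, a difference of 0.32 ± 0.08 (unadjusted p = 0.00203, where 3.21% of all loci were higher at a p under 0.05) with 9 of 11 cows higher. It was the only one of 17 T cell markers with a symbol among tested loci. TCOF1, which acts in ribosome production, differed by 0.23 ± 0.06 and was higher in 10 of 11 cows, as 0.89% of all loci were in at least 10. In the D14 library of cow 7965 ZAP70 had 15.0 CPM, below all other D14 libraries, so its difference was larger with that cow (0.41 in the fit of all libraries).

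The wider list of apoptosis and acute involution had 11 measured members of 28 symbols. In the fit of 22 libraries 9 were lower and 2 higher, STAT3 and OSMR alone had a p under 0.05, and the median was -0.21, beside 0.00 over all loci. Of all loci 48.6% were lower in this fit, and 3.75% were lower at such a p. LIF, a ligand upstream of STAT3, had medians of 2.69 and 1.63 CPM and a difference of -0.58 ± 0.32 (unadjusted p = 0.0955). The anti-apoptotic gene MCL1 differed by -0.21 ± 0.12 and TNFRSF1A by -0.13 ± 0.08, both with an unadjusted p above 0.05. Matrix genes in the same fit were lower for all 11, with a median of -0.41, and 4 had a p under 0.05 (FN1, TIMP1, TIMP2 and MXRA5, where 3.75% of all loci were lower at this p). The largest of these was MXRA5, a secreted matrix protein, at -0.48 ± 0.15 (unadjusted p = 0.00556, FDR = 0.57). Autophagy and lysosome genes (10 measured, 8 lower, median -0.06) and 4 immediate early genes (all lower, median -0.13) had 0 members at a p under 0.05. They include the lysosomal enzyme gene HEXA (-0.08 ± 0.10), the autophagy genes DRAM1 (-0.05 ± 0.06), SQSTM1 (-0.20 ± 0.11) and EPG5 (0.05 ± 0.07), and the immediate early genes KLF6 (-0.13 ± 0.16), JUNB (-0.45 ± 0.23), ZFP36 (-0.11 ± 0.17) and IER3 (-0.12 ± 0.16). Of 7 heat shock and folding genes all were lower, with a median of -0.04, and DNAJA1 alone had such a p (-0.11, unadjusted p = 0.0368), while DDIT3 (-0.04 ± 0.08), HSPB1 (-0.07 ± 0.07) and HSPD1 (-0.02 ± 0.07) did not.

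Genes of mitosis and DNA replication stand for the proliferation that redevelopment is known for. Of 40 mitotic and replication symbols 24 were measured, and 22 were lower at D25 in the fit of all libraries, with 0 at a p under 0.05 and a median of -0.30. The cyclin genes CCNB1 and CCNB2, the spindle gene TPX2 and the kinesin gene KIF20A had the smallest p, from 0.211 to 0.283. The median was -0.24 without the D14 library of cow 7965 and -0.25 in the fit of 22 libraries, where again 22 were lower and 0 had a p under 0.05. Of all loci 48.2%, 46.2% and 48.6% were lower in these fits. MKI67, a marker of cycling cells, had 58.95 to 145 CPM (median 86.3) at D14 and 46.8 to 136 CPM (median 76.2) at D25 in the 11 cows, with 6 cows lower and 5 higher (-0.25 ± 0.18, unadjusted p = 0.187). TOP2A, a topoisomerase of dividing cells, differed by -0.26 ± 0.18. Over 12 cows the median of MKI67 was 32.4 CPM before dry-off, 44.3 CPM at D3, and 87.1 (D7), 91.4 (D14) and 73.4 CPM (D25) thereafter.

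Cows differed in the direction of the mitotic genes. At least 21 of the 24 were lower at D25 in 6 cows and at least 21 were higher in 4, while 17 of 24 were lower in cow 8541 (HT, median log2 difference of -0.22) and 14 of 24 in cow 8668 (HT, median of -0.02). In cow 8660 (HT) all 24 were lower at D25, with a median log2 difference of -1.07, and in cow 8564 (CL) all 24 were lower, with a median of -0.68. In cow 8314 (HT) 0 of 24 were lower, with a median of 0.73. The median was negative in 8 of the 12 cows, 4 of 6 CL and 4 of 6 HT. Cow 7965 (CL), whose D14 library stood apart, is counted among both the 6 and the 8. It had 23 of 24 lower, with a median of -0.97.

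Milk protein genes varied even more between cows. CSN2, beta-casein, had 99.2 to 20890 CPM (median 3266) at D14 and 270 to 15720 CPM (median 2603) at D25 in the 11 cows. It was higher at D25 in 6 cows and lower in 5, from 14.4-fold higher in cow 8713 (HT), which went from 539 to 7788 CPM, to 12.0-fold lower in cow 8660 (HT), which went from 3236 to 270 CPM. The log2 fold change within cows was 0.16 ± 0.92 (unadjusted p = 0.862). The direction of the list turned between fits. All 4 measured milk protein loci were lower at D25 in the fit of all libraries (median -0.26, smallest p = 0.667) and without the D14 library of cow 7965 (median -0.39, smallest p = 0.584), and in the fit of 22 libraries with the block 3 were higher and 1 lower (median 0.15). CSN1S1, alpha-S1-casein, was higher in 6 cows and lower in 5 (0.14 ± 0.79), and LALBA, the regulatory subunit of lactose synthase, was higher in 7 and lower in 4 (0.31 ± 1.02). The one below 0 was the locus shared by the folate receptor genes FOLR1 and FOLR3 (-0.05 ± 0.44). These standard errors compare with a median of 0.09 over all loci in the same fit. In the D14 library of cow 7965 CSN2 had 58.3 CPM, the lowest of the 24 libraries.

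**Figure D5:**
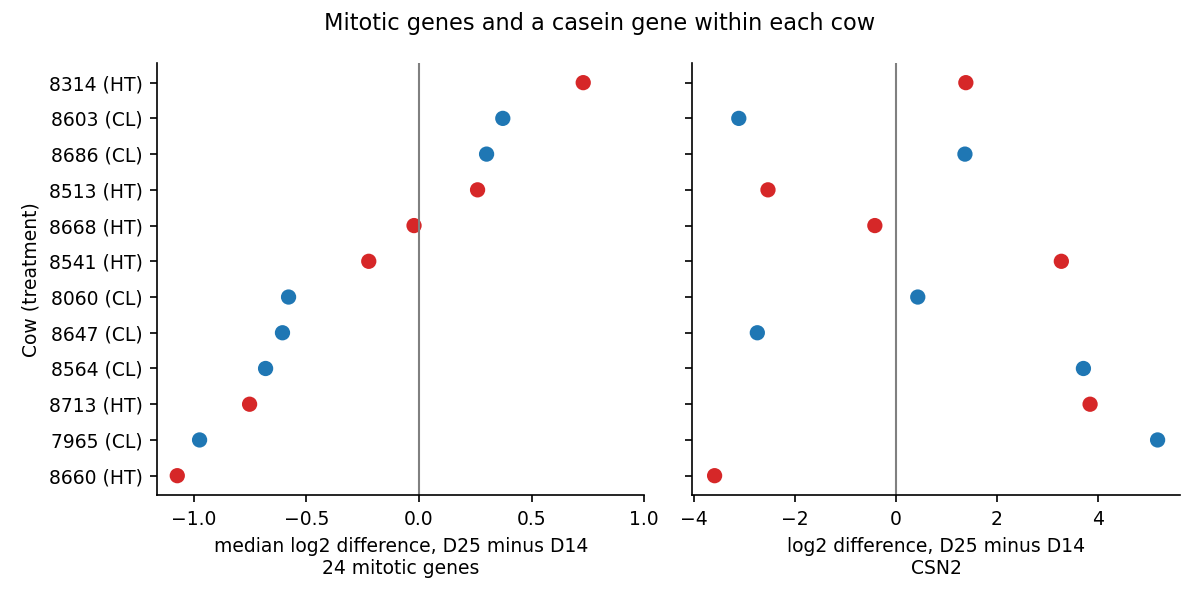
Log2 difference of D25 minus D14 in each cow (y; CL blue, HT red), as the median of 24 mitotic genes (left) and for CSN2 (right), with cows in the order of the left panel. The mitotic median ran from -1.07 to 0.73 and was negative in 8 of 12 cows, and CSN2 was higher in 7 of the 12 cows, cow 7965 included.

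Genes of milk fat synthesis (20 of 28 symbols measured) had 9 higher and 11 lower in the fit of 22 libraries, a median of -0.01 and 0 at a p under 0.05. FASN, fatty acid synthase, had the smallest of these p, with 621 to 5484 CPM (median 1125) at D14 and 551 to 4198 CPM (median 1647) at D25 and 8 of 11 cows higher (0.38 ± 0.18, unadjusted p = 0.0540). PLIN2, a coat protein of lipid droplets, was at 0.24 ± 0.26, FABP3, a fatty acid carrier, at -0.43 ± 0.47 and LPL, lipoprotein lipase, at -0.09 ± 0.16. In glucose use and lactose synthesis 5 of 6 were lower, and PGM1, a phosphoglucomutase, had a p under 0.05 (-0.15 ± 0.05, unadjusted p = 0.0165). The hexokinase HK2 was at -0.16 ± 0.08, UGP2, which makes UDP-glucose, at -0.05 ± 0.17 and the glucose transporter SLC2A1 at -0.07 ± 0.09. Among 9 hormone receptors and mammogenic signals GATA3, a luminal transcription factor, was at 0.13 ± 0.06 (unadjusted p = 0.0370) and the other 8 had larger p, among them STAT5B (0.17 ± 0.12), which carries the prolactin signal, the insulin receptor INSR (0.04 ± 0.07) and the growth factor receptor EGFR (-0.25 ± 0.13). IGFBP2, which binds insulin-like growth factors, was the 1 of 4 measured IGF genes with a p under 0.05 (-0.52 ± 0.20, unadjusted p = 0.0216), with medians of 22.8 and 18.6 CPM. IGF1 was at -0.19 ± 0.12. IGFALS (-0.69 ± 0.35 with all libraries) and the binding protein gene IGFBP5 (-0.61 ± 0.32) were at -0.17 ± 0.18 and 0.00 ± 0.23 in the fit of 22. Interferon response (5 measured, median 0.07) had 0 such members, with RSAD2 at 0.23 ± 0.15, MX1 at 0.11 ± 0.15, and the loci that hold IRF7 and IRF9, each shared with another gene, at -0.03 ± 0.07 and 0.01 ± 0.05. Innate defence (4 measured, median -0.03) had LBP, and PGLYRP1, which binds bacterial peptidoglycan, was at 0.32 ± 0.23, the chemokine CXCL17 at 0.04 ± 0.28 and the protease inhibitor SLPI at -0.11 ± 0.43. Angiogenesis (8 measured, median 0.01) had 1, ANGPT2, an angiopoietin that acts on vessels, which was at 0.38 ± 0.15 (unadjusted p = 0.0218). The growth factors VEGFC (-0.01 ± 0.12) and VEGFB (0.03 ± 0.08) and the receptors NRP2 (0.00 ± 0.13) and FLT1 (-0.06 ± 0.12) lay near 0. Over these 7 lists 5 of 56 members (8.93%) had a p under 0.05, against 6.96% of all loci in the same fit. Of all loci 48.6% were lower in this fit. No member of any of these lists had an FDR of at most 0.05.

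In the fit of 22 libraries ZAP70, described above, was the one cell type marker with a p under 0.05. Of the others, 6 of 6 luminal markers were lower, with a median of -0.17, 8 of 8 myoepithelial and smooth muscle markers were lower, with a median of -0.17, and 3 of 3 endothelial markers were higher, with a median of 0.08, all with p above 0.05. Of all loci 48.6% were lower in the same fit, with a median of 0.00. KRT19 differed by -0.17 ± 0.20, and the contractile genes ACTA2, TAGLN, MYLK and CNN1 by -0.21 ± 0.20, -0.31 ± 0.18, -0.09 ± 0.13 and -0.22 ± 0.30. The endothelial KDR, ROBO4 and EMCN were at 0.08 ± 0.09, 0.06 ± 0.12 and 0.09 ± 0.08. The 4 adipocyte markers had a median of 0.06, with FABP4 at 0.10 ± 0.31 and PNPLA2 at -0.12 ± 0.13. The 3 macrophage markers, MSR1 (0.06 ± 0.16), AIF1 (0.08 ± 0.09) and ADGRE1 (-0.07 ± 0.26), had a median of 0.06, and ADGRE1 went from -0.99 (unadjusted p = 0.0427) with all libraries to -0.45 (unadjusted p = 0.320) without the D14 library of cow 7965. The nerve markers MBP and NGFR, the lymph node marker CXCL13, the muscle marker MYH7 and ACTB, the only one of 10 RNA content genes measured, had p from 0.221 to 0.774. Lists of antigen presentation, B cells, neutrophils, skin and erythrocytes had no named member among the tested loci and were not analysed here.

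The contrast was also made within each treatment. In CL cows 20 loci (0.136%) were DEGs, all lower at D25, and in HT cows 0 (34 loci, 0.231%, at an unadjusted p under 0.05; 0 by DESeq2). The interaction of treatment with day gave 0 DEGs (132 loci, 0.897%, at such a p; 0 by DESeq2), so a difference between the treatments was not shown. Cow 7965 is a CL cow, and without its D14 library CL cows also had 0 DEGs (47 loci, 0.319%, at such a p). With the replicate block in the fit of all libraries CL cows had 0 as well. Leaving out every library of 1 cow gave 0 to 39, with 0 for 9 of the 12 cows. It gave 39 without cow 8603 (CL), 4 without cow 8686 (CL) and 1 without cow 8541 (HT). An HT cow has no library in this contrast, so leaving it out acts only through the shared scaling and estimate of spread. In the fit of 22 libraries with a mean for each treatment and day the interaction again gave 0 (317 loci at such a p, 2.15%). STAT3 was lower in 5 of 5 CL and 5 of 6 HT cows (interaction p = 0.641), and OSMR in 4 of 5 and 5 of 6 (interaction p = 0.477). The smallest interaction p of the genes in the lists was that of PPARG, a regulator of fat cell formation, at 0.00983 (FDR = 1.0).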

How the data were processed

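The deposited values are counts of reads per locus, made by the authors and not normalized. By the study's methods, single-end Illumina reads were trimmed with Trim Galore 0.4.1 and mapped with Tophat 2.0.13, transcripts were assembled with Cufflinks 2.2.1 together with ENSEMBL genes, and uniquely mapped reads were counted with HTSeq. The methods name build bosTau7 and the submitters' processing notes UMD3.1, and no coordinates are given here. The library kit does not mark strand, so reads of a gene and an antisense partner cannot be told apart. A set of 742 loci join several ENSEMBL genes, and each locus was tested once.

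Loci that reached 1 CPM in 6 or more of 60 libraries were normalized by TMM and tested with edgeR 4.0.16 (R 4.3.3; glmQLFit and glmQLFTest, a mean per day). Alternatives used DESeq2 1.42.0, other scalings, filters and dispersions, the cow as a block, other sets of libraries, and each cow or library left out. Depth was 20525083 to 23853504 counts. The cow is the replicate, and the labels give the same cow at both days. As a check, deviations from the day means correlated at 0.53 on average between a cow's D14 and D25 libraries (0.258 to 0.723 in 11 cows; -0.05 in cow 7965 when all 12 were used) and at -0.05 between different cows. Exact sign-flip tests over 11 cows used log2 CPM with a prior count of 2 in Python 3.11.15 (numpy 2.4.6; pandas 2.3.3). Figures were drawn in matplotlib 3.10.9.

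Genes named were every DEG, loci with p of at most 0.005 without the D14 library of cow 7965 that changed alike in at least 10 of 11 cows (1 locus, without a symbol), the 4 members of each list with the smallest p, and the 10 loci farthest above and below in that library. Only loci with a symbol, in the part of the study's supplementary tables held here, were named, except for 2 DEGs. KRT7, CLDN7 and ELF3 were given only in a sum. Other genes were picked after their values were seen. The members of the comparison and the gene lists were chosen with earlier results of these data known.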

Additional observations from a re-analysis of the deposited data

Results flagged for a closer look

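Within the 4 groups of 6 libraries (each treatment at each day), 49 measures of the report were checked for a library far from the rest of its group, as the gap to the nearest library divided by the range of the group. Of 196 such checks 23 exceeded Dixon's limit, where chance alone exceeds it in about 1 in 20 groups, and measures of 1 library are not independent. The measures include the 9 DEGs and genes picked because the D14 library of cow 7965 differed in them, so the number of checks exceeded is no separate evidence on that library. In CL cows at D14 there were 18, and in each the library of cow 7965 was the far one. The ratio was 0.867 for its median correlation with other libraries. On log2 CPM it was low for ERBB3 (0.932), KRT19 (0.817), FASN (0.785), S100A2 (0.688), LBP (0.673), EVA1C (0.666) and MYH2 (0.641). It was high for RBMS2 (0.721), DCN (0.676) and DPT (0.642), and for 7 of the 9 DEGs (0.816, 0.766, 0.747, 0.821, 0.672, 0.775 and 0.66). MYH2 had 0 CPM in the library of cow 7965 and 0.116 to 0.241 CPM in the other CL libraries at D14, so its ratio rests on values near the floor. In HT cows at D14 the library of cow 8541 was far above the others for ADIPOQ (0.876) and for XLOC_005519 (0.66). At D25 the library of cow 8603 (CL) was high for FN1 (0.711) and, for 1 unnamed DEG, so were that of cow 8603 (0.681) in CL cows and that of cow 8660 (0.656) in HT cows.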

How the results depend on the processing

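The 9 DEGs of D25 against D14 became 0 with the replicate block (also without cows 8513 and 8660), in the 24 libraries alone with and without it, without the D-3 libraries, with treatment as a covariate, without the D14 library of cow 7965 (also with the block, RLE factors, library size only or DESeq2), and in the 22 libraries without cow 7965 with the block. They became 4 with library size only and by DESeq2, 26 with every locus that had a count, 2 with a minimum of 5 CPM in 12 libraries and 30 with tagwise dispersions. In the 22 libraries with the block DESeq2 gave 42. At an unadjusted p under 0.05 there were 534, and 112 when p did not exceed 0.005 and the log2 fold change reached 0.5 in size. Leaving out cows or libraries gave 0 to 24, with 0 without the D25 library of cow 8060, 8314, 8513, 8647, 8668, 8686 or 8713. The 20 DEGs of CL cows became 0 with library size only, the block (60, 24 or 22 libraries) or without the D14 library of cow 7965, 46 by DESeq2, 0 to 39 with a cow left out and 569 at the unadjusted p. HT cows had 1 with every locus and 34 at the unadjusted p, and the interaction 132. An unnamed DEG, -3.61 with all libraries, was at 0.068 without the D14 library of cow 7965 and between -4.05 and 0.058 with a cow left out. The 20 genes named from the fit of 22 libraries kept their direction and passed no FDR threshold of edgeR in each of 18 alternatives. These include the fit the genes were picked from, and the others share its libraries, so the kept direction is no separate evidence. The settings that combine leaving out cow 7965 or its library with RLE factors, library size only or DESeq2, the fit of 22 libraries by treatment, and the block without cows 8513 and 8660, were added after the data were seen. Apart from those of MYH2 and MMP27, the lowest levels given rest on 6 reads (BTN1A1) and 4 reads (XLOC_023641). Causes of these dependences were not tested beyond the libraries named.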
